A study of Mus musculus with 2 samples.

Results

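Scavenger receptors and receptors that bind apoptotic cells directly were examined in microglia, the resident macrophages of nervous tissue, from mouse retina at postnatal day 5. The set comprised 10 named genes (*Scarb1*, *Scarb2*, *Cd36*, *Lrp1*, *Stab1*, *Msr1*, *Mrc1*, *Cd68*, *Timd4* and *Cd300lf*), and 9 of them had a row among the 13549 genes of the deposited table, all with at least 20 reads. The expression of *Timd4* was not analysed here. The cells came from CD11c-Cre-gfp;Rosa-TDTom animals. In these the promoter of CD11c, an integrin of myeloid cells encoded by *Itgax*, drives Cre and green GFP, and Cre turns on a permanent red reporter. Both sorted groups therefore carried both alleles and were positive for TdTomato. Cd11c-active cells (GFP+TdTom+) still showed the green signal, and Cd11c-lineage cells (GFP-TdTom+) did not. The sort gave 4041 Cd11c-active and 5441 Cd11c-lineage cells out of 8 retinas, with 4 female and 4 male (retinas or animals, which the labels leave unsaid), and 1 bulk RNA library was made from each. CD11c is also used by other myeloid cells such as dendritic cells, so the reporter is not specific for microglia. No difference below has a replicate check, and each compares 2 libraries, not 2 conditions.

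Phagocytes find dying cells in several ways. Some receptors bind phosphatidylserine, a lipid that apoptotic cells expose on their surface, without a bridging protein; others recognise oxidised lipoproteins, sugars or calreticulin on the target. Scavenger receptors are a loose group defined by binding modified lipoproteins and other polyanionic ligands, and many of them take up lipid, matrix fragments and dead cells alike. During retinal development microglia clear neurons that die in large numbers.

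The libraries held 12943998 (Cd11c-active) and 13402625 (Cd11c-lineage) reads. Levels are given as CPM, the reads of a gene per 1000000 reads of its library after TMM scaling, and ratios as log2 of Cd11c-active over Cd11c-lineage, so positive values are higher in Cd11c-active. Pairs of reads or CPM values give Cd11c-active first and Cd11c-lineage second. The median log2 ratio over the 13037 genes with at least 20 reads was 0.01, and TMM raised each log2 ratio by 0.14 against scaling by totals. The libraries differed widely at low counts: of 1555 genes with 100 to under 200 summed reads, 590 (37.9%) had none in Cd11c-active or none in Cd11c-lineage. For each receptor the 95% counting interval is therefore set beside the middle 95% of log2 ratios among the 500 genes nearest to it in summed reads, called its range of like genes. *Itgax* itself had 2409 and 1698 reads, a log2 ratio of 0.69. This lies inside the ranges of like genes of *Cd300a* (2100 and 1758 reads, -0.89 to 0.97) and *Sorl1* (1679 and 2663 reads, -0.89 to 0.94), which are of similar abundance. All 14 homeostatic microglia genes had reads in both libraries, their summed level was 24106 and 23691 CPM, and 0 of 14 were past 2-fold, where 1.2 to 3.0% of like genes were.

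Most receptor reads came from a few genes that were abundant in both libraries. Of the 9 receptors, *Lrp1* held 54.3% of the set's reads in Cd11c-active (Wilson 95% interval 53.9 to 54.6) and 60.8% in Cd11c-lineage (60.5 to 61.1). *Stab1* held 23.8% (23.5 to 24.1) and 19.4% (19.2 to 19.7), *Scarb2* 11.8% (11.5 to 11.97) and 11.6% (11.4 to 11.8), and *Cd68* 8.61% (8.42 to 8.81) and 4.43% (4.30 to 4.56). The remaining 5 genes each held under 2% in either library. These intervals cover counting error only, as do all intervals on reads below.

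**Figure D1:**
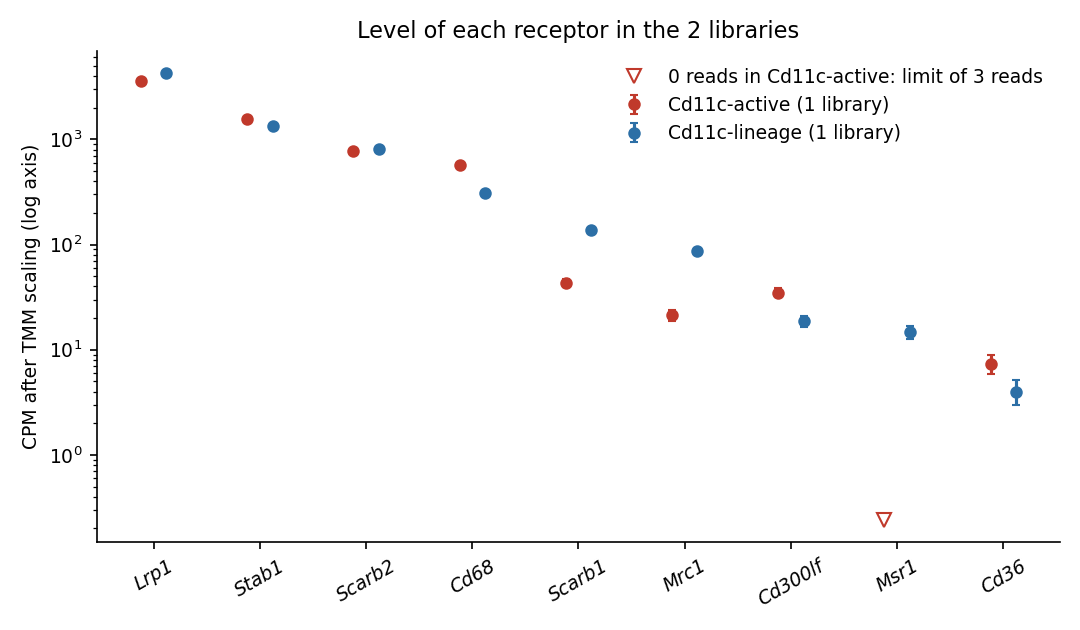
Level of the 9 receptors in CPM on a log axis, with 1 point per library and bars for the exact Poisson 95% interval. *Lrp1*, *Stab1*, *Scarb2* and *Cd68* lie at 308 CPM or more in both libraries, and the open triangle for *Msr1* marks the 0.243 CPM that 3 reads would give in Cd11c-active.

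Transcripts differ in length, and long ones collect more reads, so levels between receptors were compared per kilobase of the longest annotated transcript. On that scale *Cd68*, whose transcript has 1230 bases, led in Cd11c-active with 461 CPM per kilobase, followed by *Lrp1* (14888 bases) with 240.0, *Stab1* with 196, *Scarb2* with 165, *Scarb1* with 14.0, *Cd300lf* with 8.86, *Mrc1* with 3.95 and *Cd36* with 2.14. In Cd11c-lineage the order was *Lrp1* with 284 CPM per kilobase, *Cd68* with 251, *Scarb2* with 172, *Stab1* with 169, *Scarb1* with 44.3, *Mrc1* with 16.3, *Cd300lf* with 4.75, *Msr1* with 4.01 and *Cd36* with 1.17. *Cd68* and *Lrp1* thus changed places: the level of *Cd68* per kilobase was 1.92 times that of *Lrp1* in Cd11c-active (1.87 to 1.97) and 0.882 times in Cd11c-lineage (0.855 to 0.910). That exchange sets a short transcript against a long one, and log2 ratios between the libraries fell with transcript length, as given below. With this trend removed both genes (*Cd68* 0.56, *Lrp1* -0.21) lay inside their ranges of like genes. Within Cd11c-lineage, *Stab1* and *Scarb2* (0.983 times, 0.960 to 1.01) and *Cd300lf* and *Msr1* (1.18 times, 0.981 to 1.43) did not differ beyond counting error. In both libraries 4 receptors stood at 165 CPM per kilobase or more and the remaining 5 at 44.3 or less.

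**Figure D2:**
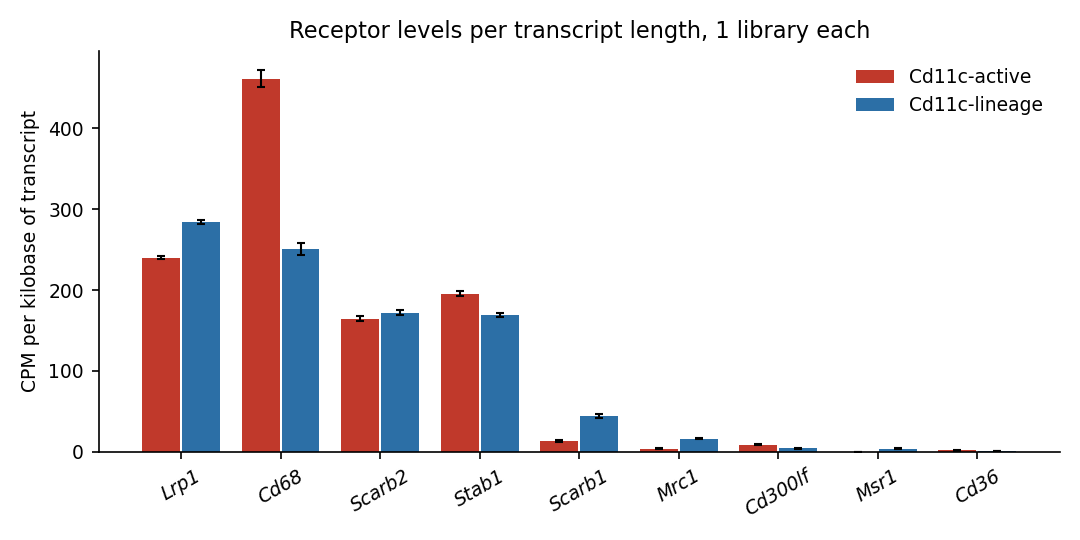
CPM per kilobase of longest transcript for each receptor, 1 bar per library with the exact Poisson 95% interval (for *Msr1* at 0 reads, the limit of 3 reads). *Cd68* reaches 461 in Cd11c-active against 251 in Cd11c-lineage, while *Lrp1*, *Stab1* and *Scarb2* lie between 165 and 284 in both.

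Between the libraries, 3 of the 9 receptors (*Scarb1*, *Mrc1* and *Msr1*) were more than 2-fold lower in Cd11c-active with an interval that left out 0, and 0 of 9 were more than 2-fold higher. Among genes with at least 20 reads, 21.6% were past 2-fold lower and 23.3% past 2-fold higher by the same rule. Among the 4619 genes with at least 1000 reads, where *Scarb1* and *Mrc1* belong, the shares were 4.14% lower and 5.43% higher. Against their ranges of like genes, *Scarb1* and *Mrc1* lay below and *Cd68* above, and the other 6 lay inside; 1.83% of all genes lay below and 2.01% above such a range. By sign 4 receptors were higher and 5 lower, with a median log2 ratio of -0.06 beside 0.01 over all genes.

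**Figure D3:**
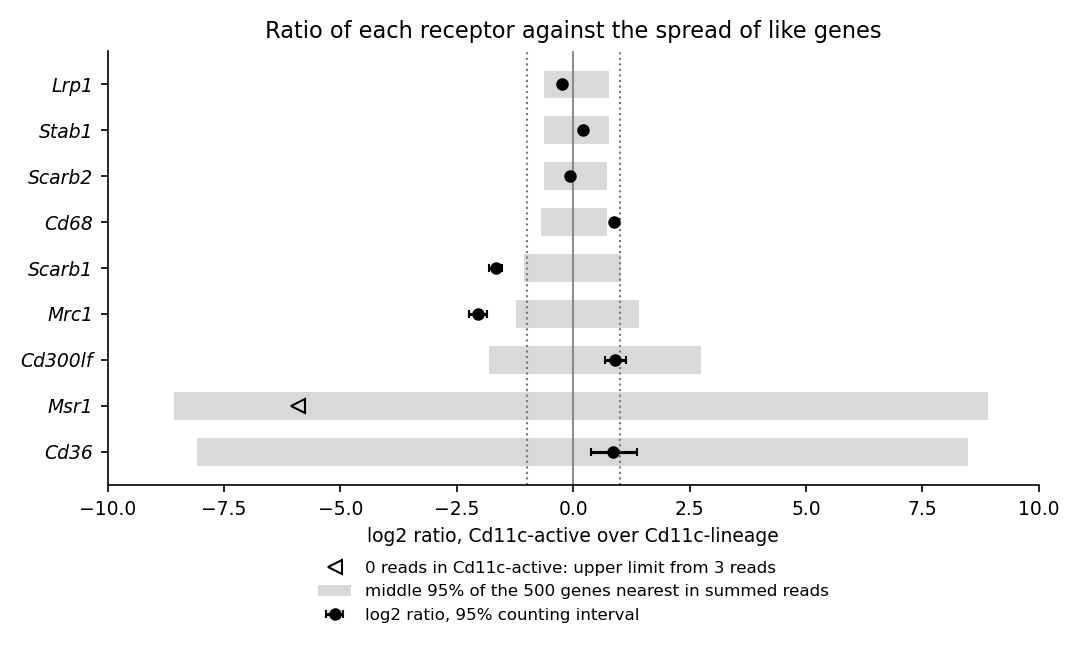
Log2 ratio of each receptor with its 95% counting interval (black) over the middle 95% of the 500 genes nearest in summed reads (grey), with dotted lines at 2-fold. *Scarb1* and *Mrc1* sit left of their grey bars and *Cd68* right of its bar, and the bars widen to more than 8 log2 units on either side for *Msr1* and *Cd36*.

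The class B scavenger receptors share a loop held by a pair of membrane spans, and of these *Scarb1* alone lay outside its range of like genes. *Scarb1* (ENSMUSG00000037936), the receptor for high-density lipoprotein that also binds phosphatidylserine, had 533 and 1926 reads (43.2 and 137 CPM). It was thus clearly the lower in Cd11c-active, by a log2 ratio of -1.67 (-1.81 to -1.53), or 3.17-fold. Its 500 like genes had ratios from -1.05 to 1.04, and 6.6% of them were past 2-fold in either direction. *Scarb1* stood at percentile 0.2 of them.

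*Scarb2* (ENSMUSG00000029426), also called LIMP-2, resides in lysosomal membranes, where it delivers glucocerebrosidase. It had 9556 and 11345 reads, or 774 and 807 CPM, a log2 ratio of -0.06 (-0.10 to -0.02), well within its range of -0.62 to 0.72. The sign of *Scarb2* turned to 0.06 once a trend of ratios with the length and GC content of transcripts was taken out. The level of *Scarb2* per kilobase was 11.8 times that of *Scarb1* in Cd11c-active (10.8 to 12.9) and 3.88 times in Cd11c-lineage (3.69 to 4.07).

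*Cd36* (ENSMUSG00000002944), a receptor for fatty acids, oxidised lipoprotein and thrombospondin, was the scarcest of the set over both libraries. It had 90 and 56 reads (7.29 and 3.99 CPM). Its log2 ratio of 0.87 (0.37 to 1.38) cannot be read at this depth, as its like genes ran from -8.09 to 8.47 and 37.6% of them lacked reads in Cd11c-active or in Cd11c-lineage. *Scarb2* exceeded *Cd36* 76.8-fold per kilobase in Cd11c-active (62.4 to 95.6) and 147-fold in Cd11c-lineage (113 to 194). The contrast of these 2 folds rests on the same few *Cd36* reads and cannot be read either. Endothelial cells are known to use *Cd36* and *Scarb1* as well. All 12 endothelial markers had at least 20 reads, and 11 of 12 were past 2-fold higher in Cd11c-active, 7 of them (*Cldn5*, *Flt1*, *Tek*, *Esam*, *Plvap*, *Vwf* and *Erg*) with 0 reads in Cd11c-lineage. Among all genes 23.3% were past 2-fold higher, and among the like genes of these 12 markers 7.8 to 56.0% were past 2-fold either way. The markers ran from 23.2 to 156 CPM in Cd11c-active and from 0 to 53.2 in Cd11c-lineage, and summed to 891 and 127 CPM. Their part in the levels of *Cd36* and *Scarb1* was not tested.

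*Lrp1* (ENSMUSG00000040249), a giant endocytic receptor that takes up lipoproteins and proteases and binds calreticulin on dying cells, ranked 16th of all genes by reads in Cd11c-active and 13th in Cd11c-lineage. Its 44118 and 59412 reads came to 3573 and 4228 CPM. The log2 ratio of -0.24 (-0.26 to -0.22) was a small difference beyond counting error but inside the range of its like genes, -0.63 to 0.77. Those like genes had 7989 to 282541 summed reads, since few genes are as abundant as *Lrp1*. Because *Lrp1* held most of the reads, the sum of the 9 receptors followed it: 6587 and 6957 CPM with a log2 ratio of -0.08 (-0.09 to -0.07), which became 0.14 (0.12 to 0.16) without *Lrp1*.

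*Stab1* (ENSMUSG00000042286) encodes stabilin-1, a large receptor of macrophages and sinusoidal endothelium that binds phosphatidylserine, acetylated lipoprotein and the matrix protein SPARC. It had 19330 and 18987 reads (1566 and 1351 CPM). The log2 ratio of 0.21 (0.18 to 0.24) lay inside its range of -0.63 to 0.77, and *Stab1* was thus close to level between the libraries. Under scaling to library totals the ratio was 0.08.

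The mannose receptor gene *Mrc1* (ENSMUSG00000026712) encodes a lectin that binds mannose and sulphated sugars and is used as a marker of border-associated macrophages. It had 262 and 1230 reads (21.2 and 87.5 CPM). *Mrc1* was the lower in Cd11c-active by a log2 ratio of -2.04 (-2.24 to -1.85), or 4.12-fold, at percentile 0.4 of like genes, whose ratios ran from -1.23 to 1.41. Of these like genes 14.2% were past 2-fold. *Stab1* exceeded *Mrc1* per kilobase 49.6-fold in Cd11c-active (43.9 to 56.2) and 10.4-fold in Cd11c-lineage (9.79 to 10.995).

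Markers of border macrophages were counted beside *Mrc1*. Of 10 such markers 7 were measured, *Mrc1* among them; 5 of 7, with *Mrc1*, were past 2-fold lower in Cd11c-active and 4 (*Cd163*, *Lyve1*, *F13a1* and *Ms4a7*) had 0 reads there, while 0 were past 2-fold higher. *Folr2* (188 and 168 reads) and *Siglec1* (151 and 232) were within 2-fold. The 7 markers ran from 0 to 21.2 CPM in Cd11c-active and from 2.99 to 87.5 in Cd11c-lineage, and the sum without *Mrc1* was 27.5 and 71.6 CPM. *Cd163*, *Lyve1*, *F13a1* and *Ms4a7* had only 42 to 254 reads in Cd11c-lineage, an abundance at which 59.4 to 96.8% of like genes were past 2-fold. The part of these cells in the levels of *Mrc1*, *Msr1* and *Scarb1* was not tested, and in bulk RNA fewer cells of a type and less RNA per cell cannot be told apart.

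*Msr1* (ENSMUSG00000025044), the class A macrophage scavenger receptor, had 205 reads (14.6 CPM) in Cd11c-lineage and 0 in Cd11c-active. Where no read is seen, as many as 3 (0.243 CPM) could have been missed, and against that limit, with its 205 reads taken as exact, *Msr1* was at least 60.0-fold lower in Cd11c-active. Among its 500 like genes, however, 60 also had 0 reads in Cd11c-active and 63.2% were past 2-fold. *Msr1* stood at percentile 5.2 of them, inside their range. Neither its absence from Cd11c-active nor the size of its difference can be read from these libraries.

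*Cd68* (ENSMUSG00000018774) encodes macrosialin, a heavily glycosylated protein of the LAMP family in late endosomes and lysosomes that is widely used to mark phagocytic microglia. It had 7003 and 4330 reads (567 and 308 CPM). *Cd68* was thus the higher in Cd11c-active, by a log2 ratio of 0.88 (0.83 to 0.94), or 1.84-fold. This was short of 2-fold but above the range of its like genes, -0.69 to 0.72, at percentile 98.4. *Cd68* has a short transcript, and the log2 ratio fell by 0.16 per doubling of length among transcripts of middling length and GC content. The fitted trend, over 4612 genes, had an R squared of 0.06. With that trend removed *Cd68* was at 0.56, inside a range of -0.63 to 0.59 and at percentile 96.6, whereas *Scarb1* (-1.67; range -1.02 to 1.01) and *Mrc1* (-1.86; range -1.40 to 1.36) stayed below theirs.

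*Cd300lf* (ENSMUSG00000047798), an inhibitory and phagocytic receptor for phosphatidylserine and ceramide, had 430 and 262 reads (34.8 and 18.6 CPM). The log2 ratio was 0.90 (0.68 to 1.13), near that of *Cd68* in size, but its like genes ran from -1.80 to 2.74 and *Cd300lf* stood at percentile 79.2 of them. *Cd300lf* lies in a cluster of closely related genes, whose reads the counting could have split.

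**Figure D4:**
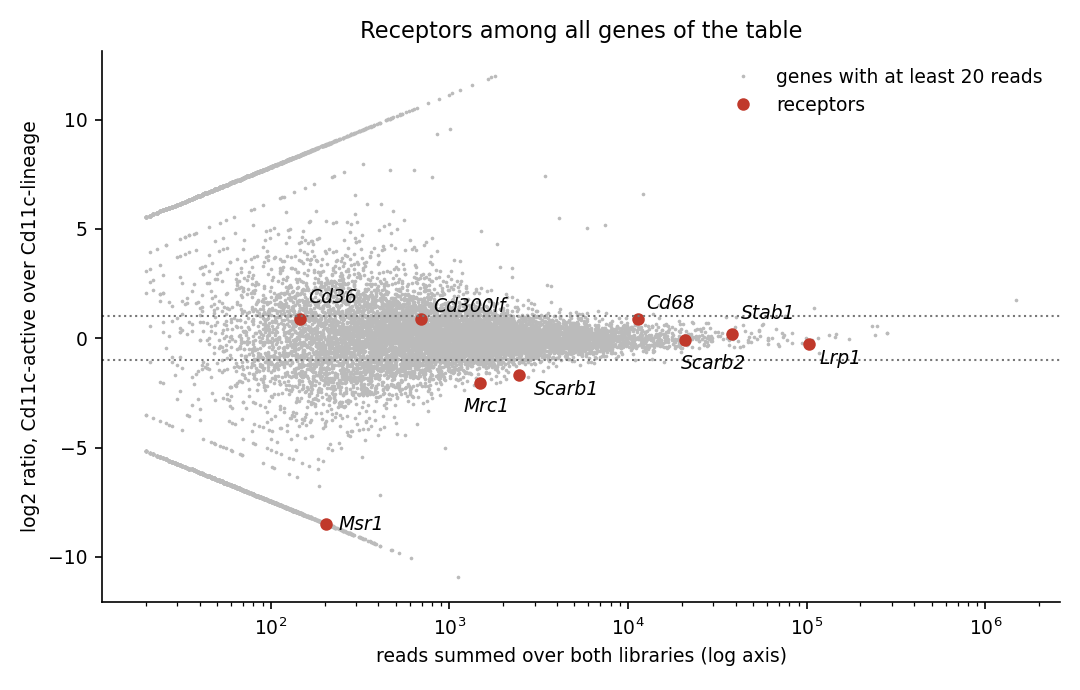
Log2 ratio against reads summed over both libraries for the 13037 genes with at least 20 reads (grey) and the 9 receptors (red), with dotted lines at 2-fold. *Scarb1* and *Mrc1* lie at the lower edge of genes of their abundance, *Cd68* near the upper edge, and *Msr1* on the lower line formed by genes with 0 reads in Cd11c-active.

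The sequences before the RefSeq start sites of these receptors were read to show which letters of known macrophage motifs they hold. The set of windows used here held 8 of the 10 genes, without *Scarb1* and *Msr1*. The purine-rich core GAGGAA, found in sites of the macrophage factor PU.1, occurred on either strand in the 250 bases before the start of 4 of these 8 (*Mrc1*, *Cd68*, *Cd300lf* and *Stab1*), against 23.3% of all 32851 windows. The AP-1 motif TGACTCA occurred in *Cd68* alone, 149 and 24 bases before the start, against 4.46% of all windows. The GC-box core GGGCGG occurred in 5 of the 8, against 32.7% of all windows, and AGGTCA in 2, against 14.0%. Both displayed motifs were picked out of 15 after the matches were seen, and a match is a description of the sequence and not a bound site. Shown are *Cd68* and *Cd300lf*, with ratios of 0.88 and 0.90 (0.56 and 0.91 with the trend removed), and *Mrc1*. *Mrc1* had the lowest ratio among receptors that had reads in both libraries. *Cd36*, with a ratio of 0.87, and *Scarb2*, *Lrp1* and *Timd4* hold neither displayed motif and are not shown. Capitals mark GAGGAA or TGACTCA on either strand. The windows are, in GRCm38.p6, chr11:69666171-69666420 on the minus strand for *Cd68*, chr11:115133993-115134242 on the minus strand for *Cd300lf* and chr2:14229164-14229413 on the plus strand for *Mrc1*.
Cd68: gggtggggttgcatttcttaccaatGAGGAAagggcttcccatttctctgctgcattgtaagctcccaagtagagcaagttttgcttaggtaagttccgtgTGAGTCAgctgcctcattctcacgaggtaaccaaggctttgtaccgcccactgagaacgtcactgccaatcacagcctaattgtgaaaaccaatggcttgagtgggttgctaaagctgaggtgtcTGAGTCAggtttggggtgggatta
Cd300lf: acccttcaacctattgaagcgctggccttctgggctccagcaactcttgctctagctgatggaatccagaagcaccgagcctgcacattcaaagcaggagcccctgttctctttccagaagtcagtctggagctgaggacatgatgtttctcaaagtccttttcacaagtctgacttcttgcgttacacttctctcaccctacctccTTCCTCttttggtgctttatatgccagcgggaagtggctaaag
Mrc1: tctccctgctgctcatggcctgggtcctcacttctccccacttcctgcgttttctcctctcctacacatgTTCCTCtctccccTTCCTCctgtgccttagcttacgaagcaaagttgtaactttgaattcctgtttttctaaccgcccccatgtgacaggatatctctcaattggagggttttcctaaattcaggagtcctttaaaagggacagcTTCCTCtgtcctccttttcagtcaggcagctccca

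*Mrc1* holds the core 3 times, at 180, 167 and 35 bases before the start, always on the opposite strand, while *Cd68* (225 bases) and *Cd300lf* (43 bases) hold it once each. Receptors with negative and with positive ratios thus carry it in this window, and *Cd36* (0.87), *Scarb2* (-0.06) and *Lrp1* (-0.24) lack it.

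Relatives and partners of these receptors were described in the same way, and the counts past 2-fold below stand beside the shares of 23.3% higher and 21.6% lower among all genes with at least 20 reads. Of 15 other scavenger receptors 11 were measured, of which 4 (*Scarf1*, *Cxcl16*, *Ager* and *Cd5l*) were past 2-fold higher and 3 (*Colec12*, *Olr1* and *Cd163*) past 2-fold lower, with a median log2 ratio of 0.56 beside 0.01 for all genes. Of these 7, all but *Cxcl16* were scarce, at under 12 CPM in both libraries. *Cxcl16*, a membrane chemokine that also binds oxidised lipoprotein, was better measured, with 924 and 408 reads and a log2 ratio of 1.36 (1.20 to 1.54), inside its range of -1.28 to 1.56. *Clec7a*, the beta-glucan receptor dectin-1, had 1179 and 769 reads (0.80, within -1.29 to 1.25). *Cd14*, a co-receptor for endotoxin, with 1058 and 1065 reads (0.18, and -0.06 with the trend removed), was close to level.

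Among 8 measured of 11 other direct receptors for phosphatidylserine, 4 (*Adgrb1*, *Ager*, *Cd300lb* and *Cd300ld*) were past 2-fold higher and 0 lower, with a median of 0.84. All 4 were scarce, and 46.2 to 97.0% of their like genes were past 2-fold. The abundant members were *Trem2*, a lipid receptor of microglia, with 7327 and 5584 reads (0.58, within -0.68 to 0.72, and 0.61 with the trend removed, above -0.62 to 0.58), and *Havcr2*, which encodes TIM-3, with 3020 and 3262 reads (0.08). *Havcr2* was the only measured TIM gene. Of the CD300 family *Cd300c2* had 1603 and 924 reads, a log2 ratio of 0.98 (0.86 to 1.10) just inside its range of -1.04 to 0.997, and *Cd300a* 2100 and 1758 (0.44). The scarcer *Cd300lb* had 291 and 155 reads (1.09) and *Cd300ld* 97 and 19 (2.51), while *Cd300e* had 0 and 62. Together with *Cd300lf*, 5 of 6 measured CD300 genes had positive ratios, as had 50.2% of all genes, and each of the 6 lay inside its range of like genes.

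Uptake through bridging proteins, which link phosphatidylserine to a receptor, was measured in 12 genes, of which 0 were past 2-fold in either direction and whose median was 0.22. At their abundance 1.4 to 40.6% of like genes were past 2-fold, and 1.4% for most of them, so little can be read from that count. The gene with the most reads, *C1qb*, a complement subunit that coats dying cells, had 2916 and 2207 CPM, a log2 ratio of 0.40 that turned to -0.07 with the trend removed. *Itgb3*, the beta subunit of the vitronectin receptor, had 1113 and 2518 reads and a log2 ratio of -0.99 (-1.09 to -0.89), below its range of -0.89 to 0.99, and *C1qc*, another complement subunit, had 25574 and 14825 reads and 0.97, above its range of -0.63 to 0.74. With the trend removed *C1qc* was at 0.52, inside a range of -0.56 to 0.59, while *Itgb3* (-0.94) stayed below its range of -0.83 to 0.84. Both were named after their values were seen.

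The kin of *Lrp1* had ratios of both signs. Of 11 relatives 10 were measured, 0 past 2-fold higher and 3 lower (*Vldlr*, *Lrp1b* and *Lrp11*), with a median of -0.23. These 3 were scarce, and 73.6 to 95.6% of their like genes were past 2-fold. *Lrp5*, a Wnt co-receptor with the most reads over both libraries together, had 2807 and 2505 reads (0.35). *Lrp1* exceeded *Lrp5* in CPM per kilobase in both libraries, with 240.0 against 25.6 in Cd11c-active and 284 against 20.05 in Cd11c-lineage. Of 8 measured partners and ligands of *Lrp1*, 3 were past 2-fold higher and 0 lower, with a median of 0.54. *Furin*, the protease that cleaves the *Lrp1* product into its chains, was among them with 3618 and 1938 reads (1.09, above its range of -0.82 to 0.90). *Gulp1*, an adaptor, had 36 reads against 0, and *Plat*, a protease ligand, 313 against 0. With 0 reads in Cd11c-lineage the log2 ratios of both rest on the 0.5 added to counts. *Plat*, at 9.48 with an interval from 6.58 upward, therefore cannot be placed against its range, which ends at 9.42. *Gulp1* lay inside its own range. Of the like genes of *Plat* and *Gulp1*, 56.0 and 97.2% were past 2-fold. *Lrpap1*, the chaperone of the receptor, had 2729 and 2142 reads (0.54), and *Apoe*, a lipoprotein ligand with the most reads here, had 11563 and 9948 CPM (0.22, and -0.25 with the trend removed).

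The relatives of *Cd68* and *Mrc1* showed smaller ratios where they were well measured. In the LAMP family *Lamp1*, a main protein of the lysosomal membrane, had 22027 and 17776 reads (0.50, within -0.63 to 0.77), *Lamp2* 6748 and 7461 (0.04), and *Lamp5* 76 against 0. In the mannose receptor family *Mrc2*, a collagen receptor, had 670 and 934 reads, or 54.3 and 66.5 CPM (-0.29, beside -2.04 for *Mrc1*). Differences between these ratios were not tested.

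Cholesterol and lipid handling after uptake was the last group. Of 11 genes 9 were measured, 2 were past 2-fold higher and 0 lower, and the median was 0.19. *Fabp5*, a fatty acid carrier, had 1018 and 222 reads and a log2 ratio of 2.38 (2.17 to 2.60), above its range of -1.42 to 1.70. *Nr1h2*, an oxysterol receptor, had 773 and 262 reads (1.75, within -1.47 to 2.29). *Abca1*, the cholesterol exporter with the most reads in the group, had 3322 and 3813 CPM (-0.20, and 0.035 with the trend removed).

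**Figure D5:**
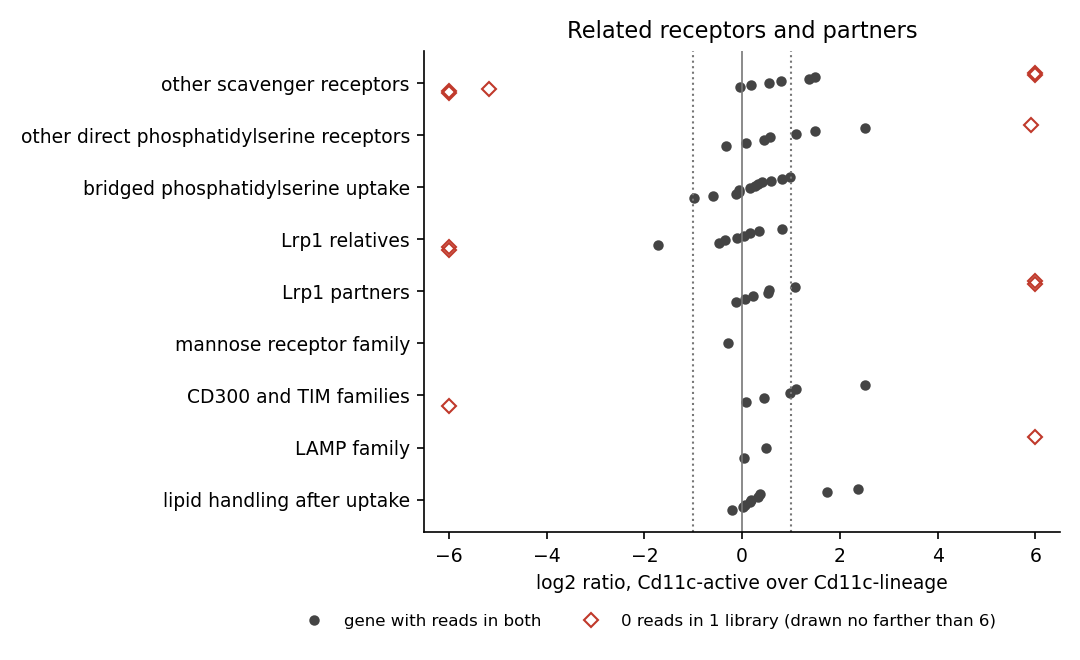
Log2 ratio of each measured gene in the 9 lists of related receptors and partners, 1 point per gene, with dotted lines at 2-fold; red diamonds mark genes with 0 reads in a library, drawn no farther than 6. Genes bridging phosphatidylserine all lie within 2-fold, while the genes at the edges are those with 0 reads in a library.

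Markers of further cell types were counted as well, where 23.3% of all genes were past 2-fold higher and 21.6% lower. Of 12 measured retinal neuron markers 6 were past 2-fold lower in Cd11c-active and 1 (*Rbpms*) higher, from 0.567 to 54.5 CPM there and 6.12 to 78.2 CPM in Cd11c-lineage, with sums of 153 and 267. *Prox1* had the most reads. For the neuron markers past 2-fold, 41.6 to 81.0% of like genes were past 2-fold too. Of these markers only *Snap25* lay outside its range, and it lay inside with the trend removed. Of 6 Muller glia and astrocyte markers 3 were past 2-fold higher and 2 lower, at abundances where 31.8 to 91.4% of like genes were past 2-fold. Of these only *Slc1a3* (73 and 642 reads) lay outside its range, below it. *Glul*, which microglia also express, held nearly all reads of this list, at 2249 and 2369 CPM. Of 5 monocyte and neutrophil markers 2 were past 2-fold higher and 3 lower, these 3 (*S100a8*, *S100a9* and *Plac8*) with 0 reads in Cd11c-active. *Fn1*, which phagocytes and vessels also make, led with 371 and 156 CPM. It lay above its range, where 2.0% of like genes were past 2-fold. For the other markers of this list the share was 77.2 to 97.0%, and they lay inside their ranges. Of 6 dendritic cell markers 1 was measured, *Zbtb46*, which endothelium also expresses, with 200 and 0 reads; the other 5 were not analysed here. Of 8 pigment epithelium markers 2 were measured, *Dct* and *Pmel*, with 0 reads in Cd11c-active and 7 and 10 in Cd11c-lineage; the other 6 were not analysed here. The part of these cells in the receptor values was not tested.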

How the data were processed

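Raw counts for 2 libraries were deposited, per the file headers, with a log2 fold change that was not used for any result. The submitters' processing notes name cutadapt 3.5, STAR 2.7.9a, featureCounts 1.6.3, edgeR 4.0.16 and GRCm39, without roles; use of strand is not given in the sources used here. The smallest summed count was 6, so a minimum had been applied. Members and lists were chosen with earlier results of these data known.

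TMM factors (edgeR 4.0.16, R 4.3.3) were 0.954 and 1.05. Ratios used counts plus 0.5, with exact Clopper-Pearson 95% intervals; a gene was past 2-fold at a log2 ratio of 1 or more, or -1 or less, with an interval leaving out 0. With 1 library per group, no test of the groups could be fitted, so no p is given. Ranges of like genes exclude the receptors. A count of 0 allows 3 reads (0.243 and 0.213 CPM); reads are not independent molecules, so intervals and limits cover counting error only. Lengths and GC content came from the longest GENCODE vM21 transcript (GRCm38; 13499 genes, 99.6%). All 9 receptors and, of each list, the counts, the gene with the most reads and genes past 2-fold were to be named; the whole mannose receptor, CD300 and TIM, and LAMP families too. Other genes were named after their values were seen, and 1 gene was left out of its list and is not reported here. Windows came from RefSeq (GRCm38.p6). Motifs searched on both strands beside the displayed ones, with their share of all windows, were AGGAAGT (7.69%), GAGGAAGT (2.44%), TCACGTGA (0.785%), CACGTG (6.02%), TCATGTGA (0.846%), an interferon response motif (2.98%), TCACNCCAC (1.05%), AGGTCA (14.0%), GGGCGG (32.7%), a MEF2 motif (0.103%), TTGCGCAA (0.164%), TGTGGT (14.0%) and TATAAA (12.4%); of these, AGGAAGT (*Mrc1*), TCACNCCAC (*Timd4*) and TATAAA (*Cd300lf*) matched 1 gene of the set each, AGGTCA 2, GGGCGG 5 and the others 0; AGGAAGT and GAGGAAGT overlap GAGGAA, and TCACGTGA holds CACGTG. The procedure was run on simulated counts that held counting error only. That run cannot show how it performs on libraries that differ as widely at low counts as these. Python 3.11.15, numpy 2.4.6, scipy 1.17.1, pandas 2.3.3, matplotlib 3.10.9 and DESeq2 1.42.0 (size factors) were used.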

Additional observations from a re-analysis of the deposited data

How the results depend on the processing

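No paired analysis was possible because each group has 1 library. For the same reason no replicate could be left out. The count of 3 receptors past 2-fold lower was 3 under every alternative scaling, minimum, prior count and trend removal tried, and 2 by the rule of lying below the range of like genes, with or without the trend. The count of 0 past 2-fold higher became 1 (*Cd36*, at 1.01) after trend removal and 1 (*Cd68*) above the range of like genes; with both choices together, chosen after seeing the data, it was 0. The median log2 ratio of -0.06 moved to -0.20 under library totals and reversed to 0.060 after trend removal, as *Scarb2* is the median gene. The ratio of summed reads, -0.08, was -0.22 under library totals and -0.10 scaled to the homeostatic microglia list, and reversed to 0.14 without *Lrp1*. *Scarb1* ranged from -1.80 to -1.66, *Mrc1* from -2.18 to -1.86, *Cd68* from 0.56 to 0.88, *Cd300lf* from 0.76 to 0.91, *Stab1* from 0.08 to 0.21 and *Lrp1* from -0.38 to -0.21. The spread of like genes was widest for *Cd36*, *Msr1* and *Cd300lf*, the receptors with the fewest reads, whose ratios lay inside it.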
